A study of Bos taurus with 8 samples.

Results

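Vascular endothelial cells (VECs) of bovine skeletal muscle were compared between freshly digested muscle and passage 0, the first culture after isolation. The members were the cells that carry the label VECs in the deposited annotation, 1997 of the 36129 cells of the series. Of these, 1166 were among the 4395 cells of the muscle library and 831 among the 9591 cells at passage 0, and the annotation placed none at passages 2, 5 and 8. Both groups came from the semitendinosus muscle of Belgian Blue cattle (Bos taurus), and the labels name no genetic change or drug in either group. The muscle group held unsorted cells of 10 animals (numbered 1 to 10), taken directly after collagenase digestion. The study lists adults and calves of both sexes among them, and ages and sexes were not compared here. The passage 0 group held cells of 9 of these animals, all but animal 3, after 72 h on fibronectin in a serum-free growth medium. The label of passage 0 names satellite cells, fibro-adipogenic progenitors (FAPs) and unsorted cells together, while the protocol describes unsorted cells. Each animal was cultured apart, but the cells of all animals were pooled into 1 library per timepoint, so the effect of culture and that of the library cannot be told apart.

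Vascular endothelium lines the blood vessels and controls what passes between blood and tissue. In skeletal muscle most of it is capillary endothelium, which takes up fatty acids for the fibres and is held in its resting state by flow, by bone morphogenetic protein (BMP) signals and by Notch signals between neighbouring cells. When vessels sprout, tip cells at the front of the sprout turn on a set of secreted and migratory genes, and when endothelium is inflamed it displays adhesion molecules and chemokines for leukocytes.

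Raw counts of unique molecular identifiers (UMIs) were summed over the VECs of each animal in each library. An animal contributed 57 to 311 VECs and 206284 to 1042240 UMIs in muscle, and 23 to 218 VECs and 277985 to 3179089 UMIs at passage 0. A VEC held a median of 2778.5 UMIs in muscle and 12856 at passage 0, and the median share of mitochondrial UMIs was 2.18% and 1.43%. No VEC barcode occurred in both libraries. Levels are given as UMI counts per 1000000 UMIs of the library size scaled with TMM factors (CPM), as mean ± SD over 10 and 9 animals, and "log2FC" is the fitted log2 fold change of passage 0 over muscle with its standard error. In the quasi-likelihood test of edgeR, genes whose log2FC lay above 1 or below -1 at a Benjamini-Hochberg adjusted p under 0.05 were called, and "rose" and "fell" are used of called genes alone. Over the 5896 genes tested, 35.1% were called, 15.6% as higher and 19.6% as lower at passage 0, with a median log2FC of -0.02. In 33.6% of the tested genes the animals of the 2 groups did not overlap. These shares are the comparison for every list below, and a count near them does not set a list apart from all genes.

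The label was first set against 18 markers of vascular endothelium, all of which passed the filter on low counts. PECAM1, an adhesion molecule at endothelial contacts, ranged from 644 to 1134 CPM in muscle (median 956) and from 909 to 1281 CPM at passage 0 (median 1016). CDH5, the cadherin of endothelial adherens junctions, ranged from 576 to 816 CPM in muscle (median 637) and from 662 to 949 CPM at passage 0 (median 799). The groups overlapped for both genes, with a log2FC of 0.14 ± 0.10 and 0.26 ± 0.09, and neither was called. ECSCR, an endothelial surface regulator, stood at 291 ± 46.2 in muscle and 364 ± 34.9 CPM and was not called (log2FC 0.32 ± 0.10), although it was higher at passage 0 in 9 of 9 animals. CLDN5, the main endothelial claudin, stood at 893 ± 265 in muscle and 1632 ± 287 CPM and was also higher in 9 of 9. With a log2FC of 0.86 ± 0.15 (edgeR adjusted p = 2.7e-05) it stayed under the fold threshold, and it was called without the filter on low counts (log2FC 1.07). Of the 18 markers, 10 fell and 0 rose, against 19.6% and 15.6% of all genes. ENG, a co-receptor for BMP9 on endothelium, ranged from 517 to 972 CPM in muscle (median 722) and from 25.6 to 63.5 CPM at passage 0 (median 41.5), without overlap, and fell with a log2FC of -4.21 ± 0.16 (edgeR adjusted p = 1.4e-18). FLT1, a vascular endothelial growth factor (VEGF) receptor that acts as a decoy, fell from 564 ± 134 to 49.3 ± 23.9 CPM. VWF, the von Willebrand factor stored in endothelial granules, ranged from 294 to 908 CPM in muscle (median 422) and from 19.8 to 129 CPM at passage 0 (median 67.9), so that each passage 0 animal lay below each muscle animal. TEK, the angiopoietin receptor, fell from 266 ± 38.2 to 49.0 ± 14.3 CPM and KDR, the main signalling receptor for VEGF, from 559 ± 77.2 to 169 ± 45.02 CPM. CD34, MMRN2, ESAM, F11R and TIE1 also fell, with log2FC from -3.02 for MMRN2 to -1.08 for TIE1, and the call of TIE1 was lost without the filter on low counts (log2FC -0.87) and after thinning (-0.86). EMCN, ERG, EGFL7 and ROBO4 had log2FC between -0.93 and -0.65 and were not called, although ERG was called after thinning (log2FC -1.08). The 18 markers together summed to 7998 to 10576.0 CPM in the muscle VECs and to 5159 to 6943 CPM at passage 0, against 247 to 464 CPM and 77.4 to 110 CPM in the FAPs of the same libraries, the type with the most cells at passage 0. In lymphatic endothelial cells (LECs) the same markers summed to 4701 to 7595 CPM in muscle and 4821 to 6914 CPM at passage 0, so these markers set VECs apart from FAPs in both libraries and not from LECs at passage 0. Lymphatic markers summed to 4.40 to 41.8 CPM in the muscle VECs and 20.6 to 60.7 CPM at passage 0, and to 8784 to 21634 CPM and 1971 to 4026 CPM in the LECs. Of the 18 markers 10 fell in culture. The cell type was assigned from the expression of the same cells, so these values are a description of the label and no independent check of it.

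**Figure D1:**
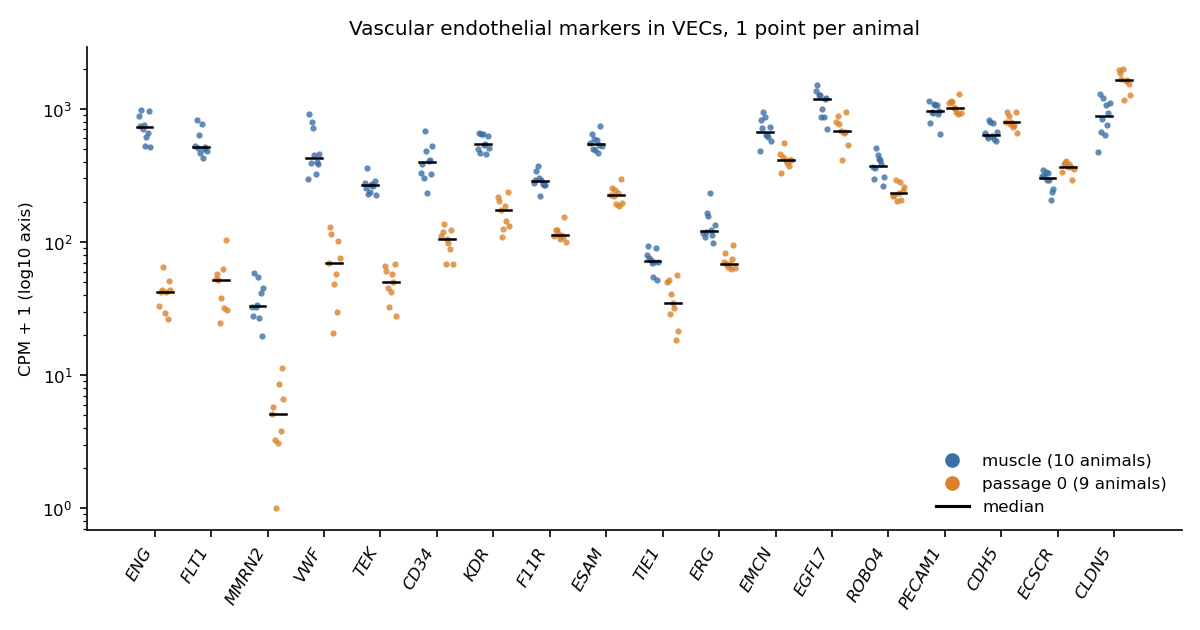
Level of the 18 vascular endothelial markers in VECs (CPM on a log10 axis, 1 added to each value), 1 point per animal for 10 muscle and 9 passage 0 animals, with a bar at the median. PECAM1, CDH5, CLDN5 and ECSCR overlap between the groups, whereas the passage 0 animals lie below all muscle animals for ENG, FLT1, VWF, TEK, KDR, CD34, MMRN2, ESAM, F11R and ERG.

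Marker lists of other cell types were summed in the VECs as well. Some of their members are also genes of VECs, so a sum is not a level of foreign RNA. TPM2, a tropomyosin on the fibre list, stood at 126 ± 43.7 CPM in muscle and 127 ± 28.6 CPM at passage 0, most of the fibre sum in culture, and MCAM stands on both the mural and the tip cell list. Muscle fibre genes (19 measured) summed to 688 to 2553 CPM in the muscle VECs and to 84.4 to 176 CPM at passage 0, where 9 of the 19 had no count, ACTA1, MB, TNNI2 and MYL1 among them. FAP markers (11) summed to 151 to 1499 CPM and 504 to 993 CPM, macrophage markers (12) to 35.5 to 116 CPM and 11.5 to 27.8 CPM, satellite cell markers (10) to 21.003 to 407 CPM and 7.21 to 26.0 CPM, and lymphatic markers (9) to 4.40 to 41.8 CPM and 20.6 to 60.7 CPM. Mural cell markers (10) summed to 37.2 to 198 CPM and 82.4 to 167 CPM, and red cell genes (4) to 0 to 21.003 CPM and 0 to 1.46 CPM. Of the lymphocyte markers (9), 5 had no count at passage 0, and the rest of that list was CCL5 for the most part. At passage 0 the 6 FAP markers tested in VECs stood at 7.72% to 13.1% of their level in FAPs. Of the 917 genes that rose in VECs, 6 were at or below 13.1% of their FAP level, CXCL5 and PTX3 among them. The part of RNA from other cells in the changes below was not tested.

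The 12 genes with the largest fitted rise among abundant genes that were higher in 9 of 9 shared animals included secreted immune and matrix proteins. GCG, which encodes proglucagon, had 0 counts in the muscle VECs of all 10 animals and ranged from 54.5 to 492 CPM (median 192) at passage 0, at least 264-fold higher with 3 counts set for muscle as a whole. MAP1LC3C, a member of the LC3 autophagy family, had 0 counts in muscle and reached 60.1 ± 32.4 CPM, at least 80.0-fold higher. PTX3, a soluble pattern recognition protein, had 2 UMIs in the muscle VECs and stood at 269 ± 93.1 CPM in culture, 11.6% of its mean of 2315 CPM in FAPs. CCL5, a chemokine for T cells and monocytes, had 3 UMIs in muscle and ranged from 35.3 to 577 CPM (median 110) at passage 0, with animals 6 and 10 highest, at 543 and 577 CPM. TNFRSF6B, a soluble decoy receptor for FAS ligand and related ligands, rose from 41.9 ± 104 to 2155 ± 214 CPM. In muscle it lay at 0 to 37.2 CPM in 9 animals and at 338 CPM in animal 6. LTB, the membrane-bound lymphotoxin, rose from 16.6 ± 21.2 to 1116 ± 507 CPM, and CXCL5, a neutrophil chemokine, from 9.06 ± 24.5 to 758 ± 178 CPM, 10.2% of its mean of 7447 CPM in FAPs. TNC, a matrix protein of remodelling tissue, rose from 2.28 ± 3.16 to 185 ± 111 CPM, with a log2FC of 6.51 ± 0.64. UCHL1, a ubiquitin hydrolase, rose from 1.76 ± 3.96 to 310.3 ± 80.5 CPM, and HMGA1, an architectural chromatin protein, from 4.75 ± 9.41 to 283 ± 75.0 CPM. NKAIN1, which encodes a protein that binds a subunit of the sodium pump, had 3 UMIs in muscle and stood at 80.9 ± 26.9 CPM.

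The 12 largest falls were of mixed kinds and included fibre genes. CD74, the invariant chain of MHC class II, ranged from 1826 to 2799 CPM in muscle (median 2289) and from 0 to 4.75 CPM at passage 0 (median 3.25). FOSB, an immediate early transcription factor, fell from 816 ± 391 to 0.805 ± 1.23 CPM and C1QTNF9, a secreted relative of adiponectin, from 259.6 ± 103 CPM to 3 UMIs in all passage 0 VECs. SLC26A10, of the SLC26 family of anion carriers, stood at 156 ± 61.0 CPM in muscle and had no count at passage 0, at least 593-fold lower. PTGDR, a receptor for prostaglandin D2, and PLAC8B, a relative of PLAC8, stood at 113 ± 56.8 CPM and 132 ± 65.7 CPM in muscle and had 2 UMIs each at passage 0. LTBP4, which stores latent TGF-beta in the matrix, fell from 172 ± 63.3 to 0.418 ± 0.573 CPM. MGP, an inhibitor of BMPs and of calcification, fell from 443 ± 495 to 0.559 ± 0.598 CPM, and ASPN, a small proteoglycan of the matrix, from 68.4 ± 55.0 CPM to no count. Both are abundant in FAPs of muscle, at 15525 and 471 CPM. The fibre genes ACTA1, TNNI2 and MYL1 make up the rest of the 12. They stood at 192 ± 80.5 CPM, 77.5 ± 59.6 CPM and 60.3 ± 35.4 CPM in muscle VECs and had no count at passage 0. In FAPs of the same libraries they went from 465 to 0.108 CPM, from 106 to 0.027 CPM and from 80.1 to 0.0069 CPM.

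**Figure D2:**
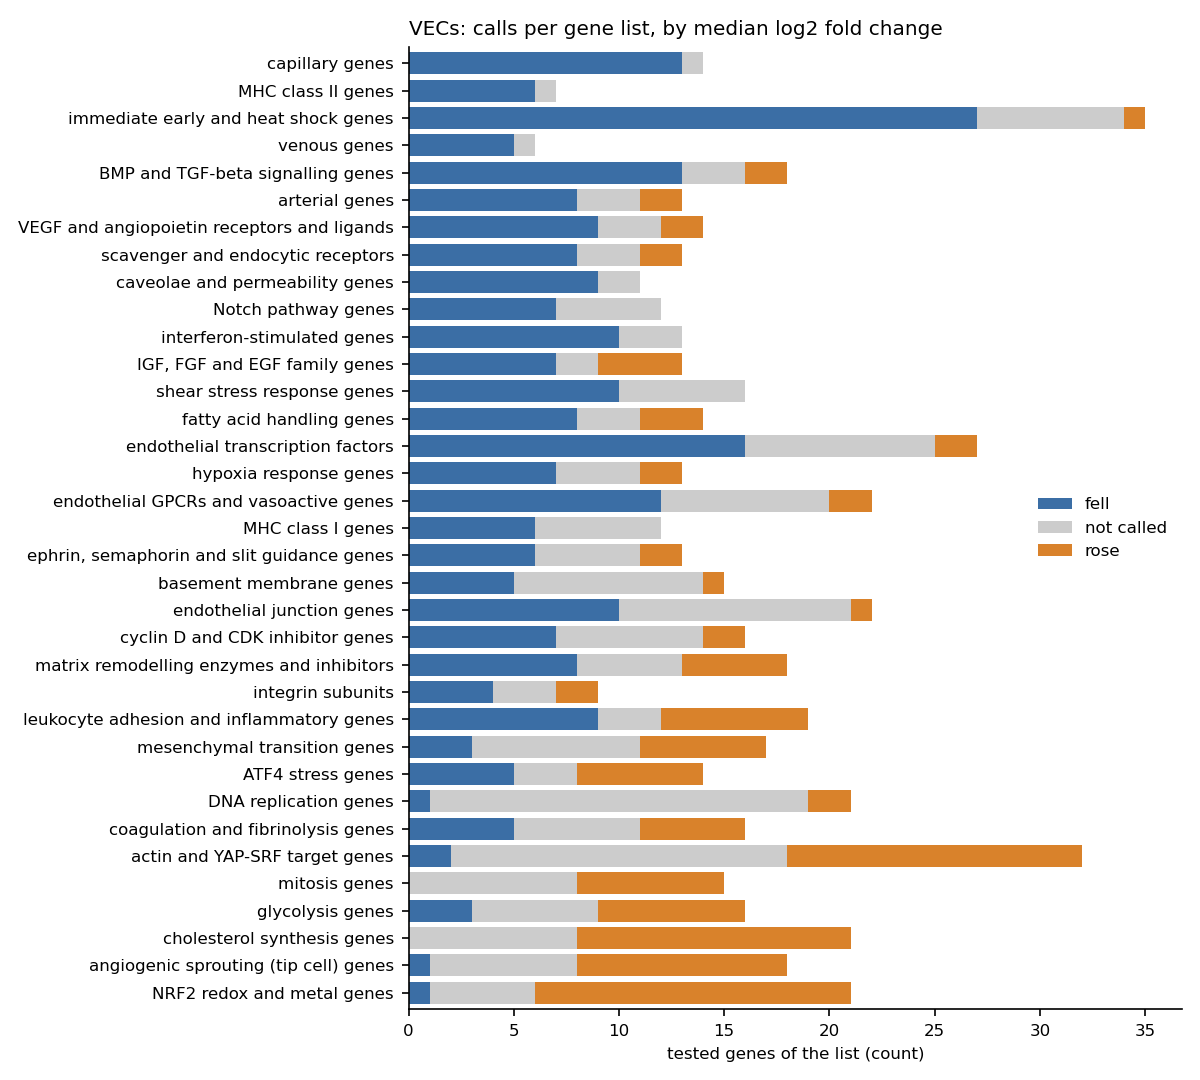
Number of tested genes per list that rose, fell or were not called in VECs at passage 0 against muscle, for 35 lists of endothelial, immune, matrix, metabolic, stress and growth genes. Falls make up most of the bars of the capillary list (13 of 14) and the immediate early list (27 of 35), and rises most of those of the NRF2 list (15 of 21) and the cholesterol list (13 of 21).

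Genes of the capillary bed fell together. Of 20 measured capillary genes 14 passed the filter, 13 fell and 0 rose, and the median log2FC was -3.79 against -0.02 over all genes. Of the 14, 7 had a lower and 0 a higher change in VECs than in FAPs, against 13.8% and 11.8% of all genes. Against LECs, a less precise test, 2 were lower and 0 higher, against 4.23% and 2.70%. In LECs CD36 went from 79.2 to 2.73 CPM and AQP1 from 144 to 2.01 CPM, whereas FABP5 stood at 895 and 877 CPM. CD36, the fatty acid translocase, ranged from 740.0 to 3220.2 CPM in muscle (median 1541) and from 2.83 to 23.4 CPM at passage 0 (median 4.33). FABP5, the fatty acid binding protein of endothelium, ranged from 4055 to 16821 CPM in muscle (median 8565) and from 72.8 to 206 CPM at passage 0 (median 127), and neither gene overlapped between the groups. AQP1, a water channel, fell from 1668 ± 724 to 11.5 ± 12.7 CPM, BTNL9, a butyrophilin of capillaries, from 239 ± 98.2 to 0.285 ± 0.656 CPM, and TCF15, a transcription factor that drives fatty acid transport in muscle and heart endothelium, from 459 ± 109 to 9.38 ± 3.86 CPM. CA4, a carbonic anhydrase on the capillary surface, fell from 124 ± 63.3 to 8.39 ± 3.83 CPM, and TIMP4, a metalloproteinase inhibitor, from 369.8 ± 187 to 26.8 ± 10.0 CPM. MEOX1, a homeobox factor, was the member not called, at 122 ± 80.3 in muscle and 133 ± 54.0 CPM.

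Among the tested venous and arterial genes more fell than rose. Of 14 measured venous genes 6 were tested and 5 fell. ACKR1, the chemokine receptor of venules, fell from 88.0 ± 76.2 to 0.385 ± 0.593 CPM, SELP, a selectin that catches leukocytes, from 130.1 ± 90.1 to 2.48 ± 3.86 CPM, and NR2F2, the factor that sets venous identity, from 136 ± 41.4 to 39.8 ± 22.4 CPM. Of 18 arterial genes 13 were tested, of which 8 fell and 2 rose, against 19.6% and 15.6% of all genes. The list had a median log2FC of -1.97 in VECs and -4.12 over its members tested in FAPs. Of the 13, 4 had a higher and 0 a lower change in VECs than in FAPs, against 11.8% and 13.8% of all genes. NRP1, a co-receptor for VEGF and semaphorins, ranged from 622 to 1015 CPM in muscle (median 835) and from 55.6 to 115 CPM at passage 0 (median 79.4), with no overlap. ELN, elastin, fell from 129 ± 68.6 to 13.0 ± 3.29 CPM. BMX, a kinase of arterial endothelium, rose from 6.82 ± 7.14 to 55.6 ± 19.8 CPM and UNC5B, a netrin receptor, from 78.7 ± 27.8 to 242 ± 71.2 CPM. GJA4, the arterial connexin 37, stood at 94.7 ± 26.6 in muscle and 82.4 ± 46.3 CPM, DLL4, the Notch ligand of arteries and tip cells, at 132 ± 59.7 in muscle and 122 ± 33.6 CPM, and JAG1 at 189.6 ± 49.1 in muscle and 107 ± 18.7 CPM, and none of these was called. JAG1 stayed under the fold threshold but was lower in 9 of 9 animals, without overlap (log2FC -0.83 ± 0.14, edgeR adjusted p = 3.7e-06).

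Sprouting genes moved the other way. Of 22 tip cell genes 18 were tested, of which 10 rose and 1 fell, with a median log2FC of 1.59. PGF, placental growth factor, ranged from 0 to 53.3 CPM in muscle (median 14.5) and from 228 to 449 CPM at passage 0 (median 386), without overlap, and CXCR4, the receptor for CXCL12, from 26.4 to 151 CPM in muscle (median 91.0) and from 333 to 1329.8 CPM at passage 0 (median 726). ANGPT2, the angiopoietin that loosens vessels, rose from 72.9 ± 66.7 to 399 ± 98.6 CPM, although animal 6 in muscle, at 240 CPM, lay near the lowest passage 0 animal. ADAMTS4, a proteoglycan-cleaving protease, rose from 38.9 ± 33.2 to 304 ± 18.8 CPM, and MCAM, an adhesion molecule, from 4.37 ± 4.69 to 46.2 ± 7.52 CPM. PDGFB, which recruits pericytes, stood at 214 ± 48.6 in muscle and 315 ± 86.1 CPM and was not called, nor was ADM, adrenomedullin, at 152 ± 101.1 in muscle and 226 ± 39.0 CPM. NID2, a basement membrane protein, fell from 184 ± 46.7 to 51.9 ± 13.2 CPM. Several receptors for VEGF and angiopoietins were lower at the same time, unlike CXCR4. Of 22 VEGF and angiopoietin genes 14 were tested, of which 9 fell (FLT1, TEK, KDR and NRP1 among them) and 2 rose (PGF and ANGPT2). VEGFA, mostly made by other cells, fell from 37.1 ± 14.7 to 8.36 ± 4.06 CPM, while VEGFC, a ligand for lymphatic and vascular receptors, stood at 95.3 ± 37.0 in muscle and 97.5 ± 11.5 CPM.

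Notch and BMP signalling genes fell for the most part. Of 20 Notch genes 12 were tested, 7 fell and 0 rose. The ligands DLL1 and JAG2 fell from 116 ± 32.2 to 10.5 ± 4.89 CPM and from 151 ± 31.7 to 23.3 ± 7.13 CPM, and the target genes HES1 and HEYL from 465 ± 118 to 69.3 ± 25.8 CPM and from 47.7 ± 18.2 to 1.94 ± 1.59 CPM. Of 27 BMP and TGF-beta genes 18 were tested, of which 13 fell and 2 rose, with a median log2FC of -2.31. ID1, a direct target of BMP signalling, ranged from 1464 to 5348 CPM in muscle (median 2077) and from 29.7 to 269 CPM at passage 0 (median 86.1), without overlap, and ID2 fell from 724 ± 228 to 51.9 ± 17.7 CPM. SMAD7, an inhibitor that the pathway induces on itself, fell from 53.3 ± 10.1 to 1.88 ± 2.57 CPM, and TGFB2, a ligand, from 79.7 ± 41.3 to 9.37 ± 6.11 CPM. SMAD1, a signal carrier of the BMP branch, rose from 149.8 ± 47.0 to 704 ± 98.7 CPM with a log2FC of 2.20 ± 0.14. In FAPs the Notch list had a median log2FC of -3.12, against -1.69 in VECs, and the BMP and TGF-beta list -2.18. HES1 fell more in FAPs and in LECs than in VECs, a difference of 1.22 ± 0.28 and 1.22 ± 0.36 in log2. Of the 12 tested Notch genes 2 had a higher and 1 a lower change in VECs than in FAPs. Of the 18 BMP and TGF-beta genes 5 had a higher and 3 a lower one.

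Genes that respond to flow fell or were not called. Of 21 measured genes 16 were tested, 10 fell and 0 rose. The list had a median log2FC of -1.39 in VECs and -1.64 over its members tested in FAPs. Of the 16, 2 had a higher and 8 a lower change in VECs than in FAPs, against 11.8% and 13.8% of all genes. KLF4, a transcription factor that flow induces, ranged from 571 to 1440.5 CPM in muscle (median 937) and from 3.77 to 20.0 CPM at passage 0 (median 10.5), and KLF2, its close relative, from 15.8 to 102.2 CPM in muscle (median 48.5) and from 0 to 3.97 CPM at passage 0 (median 1.298), both without overlap. SLCO2A1, a prostaglandin carrier, fell from 30.3 ± 9.20 to 1.14 ± 0.822 CPM. NOS3, the endothelial nitric oxide synthase, stood at 158 ± 63.7 in muscle and 75.5 ± 26.9 CPM, EDN1, endothelin, at 77.7 ± 40.5 in muscle and 50.01 ± 34.2 CPM, KLF6 at 1354 ± 492 in muscle and 737 ± 72.6 CPM and PIEZO1, a mechanosensitive channel, at 91.0 ± 25.5 in muscle and 50.1 ± 5.29 CPM, and these were not called. NOS3 was lower at passage 0 in 9 of 9 animals and was called with the animal as a replicate block (log2FC -1.01, edgeR adjusted p = 5.64e-06), with DESeq2, after thinning and with equal cell numbers. PIEZO1 was lower in 9 of 9 animals without overlap (log2FC -0.79 ± 0.14), and KLF6 in 9 of 9 with overlap (-0.88 ± 0.17). KLF4 and KLF2 are also immediate early genes, a group that moved in FAPs too. In FAPs KLF4 went from 299.7 to 29.5 CPM and KLF2 from 10.3 to 0.758 CPM. Among 33 measured endothelial transcription factors 27 were tested, 16 fell and 2 rose. EPAS1, the hypoxia-inducible factor 2 alpha of endothelium, fell from 1307 ± 165 to 149 ± 57.0 CPM, and HIF1A, its counterpart in most cells, rose from 76.8 ± 24.4 to 233 ± 39.3 CPM. PPARG, a regulator of lipid genes, fell from 66.1 ± 28.5 to 9.41 ± 3.02 CPM. SOX18, ETS1 and TCF4 were not called. SOX18 stood at 680.4 ± 251 CPM in muscle and 1152 ± 242 CPM at passage 0, ETS1 at 603 ± 75.1 CPM and 468 ± 45.8 CPM, and TCF4 at 536 ± 87.9 CPM and 456 ± 94.2 CPM.

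Antigen presentation and interferon genes were lower in culture. Of 16 measured MHC class II genes 7 were tested, 6 fell and 0 rose. BOLA-DRA, the class II alpha chain, ranged from 795 to 1201 CPM in muscle (median 982) and from 8.40 to 25.6 CPM at passage 0 (median 16.7). BOLA-DMA, which loads peptide, fell from 161 ± 62.2 to 2.45 ± 2.04 CPM, and RFXANK, a part of the class II promoter complex, was not called, at 47.1 ± 17.3 in muscle and 58.9 ± 7.30 CPM. The monocyte and macrophage markers in the same VECs summed to at most 116 CPM in muscle, and PTPRC, C1QB and MRC1 had no count at passage 0. Their part in these values was not tested. Of 14 class I genes 12 were tested, 6 fell and 0 rose. The class I genes BOLA and JSP.1 fell, with a log2FC of -1.35 ± 0.36 and -2.36 ± 0.73, although both overlapped between the groups. As near-identical loci they may share UMIs, which was not tested. BOLA ranged from 3193 to 16387 CPM in muscle (median 13701) and from 802 to 6343 CPM at passage 0 (median 4947), and JSP.1 from 386 to 8376 CPM in muscle (median 756) and from 137 to 1759.7 CPM at passage 0 (median 256). TAPBP, which loads class I, fell from 307 ± 31.2 to 121 ± 16.9 CPM, while the immunoproteasome subunits PSMB8 and PSMB9 were not called, PSMB8 at 415 ± 93.2 CPM in muscle and 384 ± 47.2 CPM at passage 0 and PSMB9 at 158 ± 37.2 CPM and 276 ± 31.8 CPM. PSMB9 was higher at passage 0 in 9 of 9 animals, without overlap (log2FC 0.79 ± 0.12). Of 29 interferon-stimulated genes 13 were tested, 10 fell and 0 rose. RSAD2, an antiviral enzyme, fell from 167 ± 70.6 to 12.6 ± 7.41 CPM, IFI27 from 654 ± 387 to 36.4 ± 12.6 CPM, and OAS1Y, an RNA sensor, from 174 ± 105 to 8.94 ± 5.89 CPM.

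Inflammatory genes changed in both directions. Of 33 measured 19 were tested, 7 rose and 9 fell. CXCL3 and GRO1, neutrophil chemokines, fell from 3589 ± 1797 to 179 ± 52.3 CPM and from 619.8 ± 479.6 to 89.1 ± 15.7 CPM, and IL33, a nuclear alarmin of endothelium, from 149 ± 85.6 to 1.55 ± 1.62 CPM. ICAM1, a ligand for leukocyte integrins, fell from 107 ± 50.2 to 9.19 ± 3.32 CPM. CCL2, the monocyte chemokine, rose from 13.3 ± 16.3 to 132 ± 31.8 CPM, and CXCL8, a neutrophil chemokine, from 12.7 ± 24.1 to 130.4 ± 87.8 CPM. CXCL2 was not called, and its mean in muscle of 70.8 ± 197 CPM came from animal 6, at 631 CPM, where 1 cell held 141 of 142 UMIs. Without animal 6 in muscle its log2FC was 3.80 and it was called (edgeR adjusted p = 7.5e-05). TNFAIP3, an inhibitor of NF-kappa-B, stood at 33.7 ± 24.0 in muscle and 34.6 ± 9.47 CPM.

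**Figure D3:**
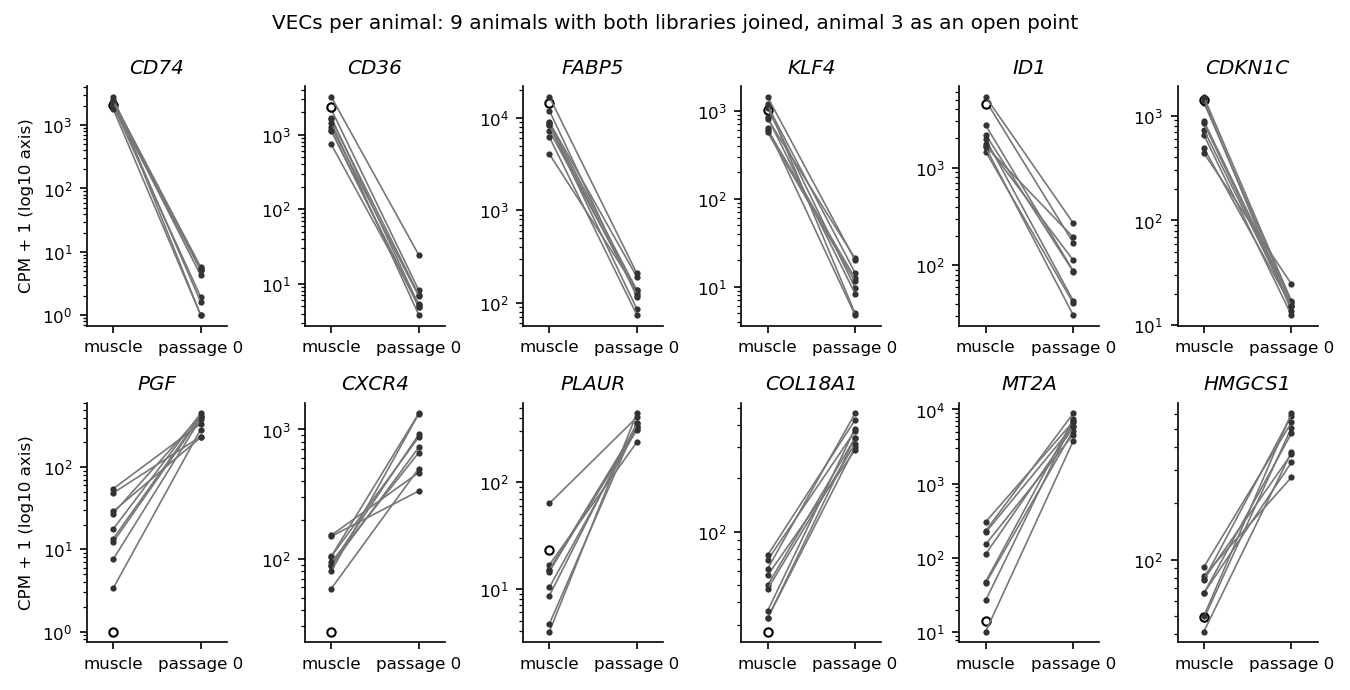
Level of 12 genes in VECs per animal (CPM on a log10 axis, 1 added), with a line joining the 2 values of each of the 9 shared animals and a single point for animal 3. Lines fall for CD74, CD36, FABP5, KLF4, ID1 and CDKN1C and climb for PGF, CXCR4, PLAUR, COL18A1, MT2A and HMGCS1 in 9 of 9 animals.

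Among junction and caveolar genes more fell than rose. Of 30 junction genes 22 were tested, 10 fell and 1 rose. JAM2, a junctional adhesion molecule, fell from 591 ± 135 to 61.7 ± 17.0 CPM, TJP1, a scaffold of tight junctions, from 167 ± 31.7 to 31.4 ± 8.42 CPM, and CTNNA1, alpha catenin, stood at 355 ± 24.0 in muscle and 226 ± 18.5 CPM, without overlap, with a log2FC of -0.65 ± 0.08 that did not reach the threshold. PVR, an adhesion receptor of the nectin family, rose from 138 ± 67.6 to 279 ± 94.8 CPM, a call that was lost after thinning (log2FC 0.99) and with equal cell numbers (0.94). Of 11 genes of caveolae and permeability 9 fell and 0 rose. CAVIN2 and CAVIN1, coat proteins of caveolae, fell from 533 ± 115 to 33.7 ± 11.9 CPM and from 1442 ± 297 to 332 ± 43.1 CPM, and PLVAP, the diaphragm protein of fenestrae, from 213 ± 132 to 32.7 ± 38.2 CPM, with overlap between the groups.

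The coagulation list was split. Of 25 genes 16 were tested, 5 rose and 5 fell. PLAUR, the urokinase receptor, ranged from 2.96 to 62.2 CPM in muscle (median 13.7) and from 237 to 440.5 CPM at passage 0 (median 336), and PLAU, urokinase, rose from 112 ± 40.0 to 328 ± 86.8 CPM. PLAT, tissue plasminogen activator, and TFPI, an inhibitor of tissue factor, rose from 41.5 ± 25.4 to 96.0 ± 14.9 CPM and from 47.4 ± 23.5 to 149 ± 16.5 CPM. F8, coagulation factor VIII, fell from 234 ± 48.4 to 6.78 ± 4.19 CPM, TFPI2, a protease inhibitor, from 2743 ± 925 to 286 ± 91.5 CPM, and CD59, which guards against complement, from 65.7 ± 35.0 to 4.22 ± 1.09 CPM. Receptors that take up plasma components were lower as well: of 21 scavenger and endocytic receptors 13 were tested, 8 fell and 2 rose (VLDLR, from 9.28 ± 11.2 to 184 ± 44.97 CPM, and SCARB1, from 13.4 ± 8.03 to 37.0 ± 9.84 CPM). CLEC14A, an endothelial lectin, fell from 773 ± 191 to 112 ± 32.6 CPM, whereas CD93, a related lectin, stood at 353 ± 122 in muscle and 406 ± 57.7 CPM. Of 38 measured G protein-coupled receptors and vasoactive genes 22 were tested, 12 fell and 2 rose. Their median log2FC was -1.12 in VECs and -2.99 over the members tested in FAPs. Of the 22, 9 had a higher and 4 a lower change in VECs than in FAPs, against 11.8% and 13.8% of all genes. APLNR, the apelin receptor, fell from 109 ± 39.6 to 6.31 ± 3.27 CPM, and NPR1, the receptor for natriuretic peptides, from 109 ± 26.4 to 11.7 ± 3.88 CPM. Of 33 guidance genes 13 were tested, 6 fell and 2 rose. Their median log2FC was -0.83 in VECs and -2.79 over the members tested in FAPs, with 5 higher and 3 lower changes in VECs. SEMA6A and SEMA6D, membrane semaphorins, fell from 135 ± 49.6 to 13.1 ± 5.81 CPM and from 59.7 ± 27.1 to 3.49 ± 4.83 CPM, and SEMA3F, a secreted one, rose from 33.4 ± 17.1 to 116 ± 21.9 CPM.

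Of 19 basement membrane genes 15 were tested, 1 rose, 5 fell and 9 were not called. The share called lies near the 35.1% of all genes. COL18A1, which carries endostatin, ranged from 26.4 to 72.6 CPM in muscle (median 47.7) and from 287 to 462 CPM at passage 0 (median 338), without overlap. COL4A1, the main collagen of vascular basement membrane, stood at 1746 ± 418 in muscle and 2007 ± 327 CPM, and the laminin chain LAMC1 at 219 ± 51.3 in muscle and 233 ± 40.7 CPM. LAMB1 and LAMB2, further laminin chains, fell from 203 ± 51.6 to 73.6 ± 16.4 CPM and from 98.7 ± 23.8 to 32.1 ± 7.84 CPM. Of 28 measured matrix enzymes and inhibitors 18 were tested, 5 rose and 8 fell. The metalloproteinases MMP2 and MMP14 rose from 42.9 ± 20.7 to 301 ± 50.8 CPM and from 5.47 ± 3.19 to 52.0 ± 13.9 CPM, and ADAMTS1, an inhibitor of angiogenesis, and ADAM15 fell from 683 ± 196 to 35.5 ± 7.71 CPM and from 365 ± 164 to 35.7 ± 11.6 CPM. Of 19 integrin subunits 9 were tested, 4 fell and 2 rose. ITGA6, a laminin receptor subunit, fell from 622 ± 62.2 to 208 ± 27.9 CPM, ITGA2 and ITGA3 rose from 12.6 ± 6.95 to 31.7 ± 10.3 CPM and from 7.25 ± 6.57 to 27.0 ± 7.04 CPM, and ITGB1, the common beta chain, stood at 811 ± 48.4 in muscle and 711 ± 95.5 CPM.

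Of 23 measured genes linked to mesenchymal transition 17 were tested, 6 rose and 3 fell. TPM1, a tropomyosin, rose from 424 ± 76.0 to 1600.4 ± 274 CPM, S100A4 from 419.9 ± 204 to 1725 ± 550.1 CPM, and TAGLN, a smooth muscle actin-binding protein, from 7.02 ± 6.75 to 45.8 ± 32.4 CPM, with overlap. SNAI1, a repressor of cadherins, fell from 84.1 ± 20.7 to 30.9 ± 10.4 CPM. ACTA2, smooth muscle actin, fell from 41.7 ± 32.4 to 18.1 ± 16.1 CPM, with overlap between the groups, and was not called without the filter on low counts (log2FC -1.04, edgeR adjusted p = 0.0745). The collagens overlapped between the groups, COL1A1 at 51.7 ± 47.6 CPM in muscle and 62.8 ± 22.2 CPM at passage 0, COL1A2 at 65.6 ± 52.8 CPM and 78.8 ± 31.9 CPM, and COL3A1 at 154 ± 118 CPM and 159 ± 35.9 CPM, beside means of 722, 687 and 1388 CPM in FAPs of the passage 0 library. Of 36 measured actin and YAP-SRF target genes 32 were tested, 14 rose and 2 fell. PFN1, profilin, rose from 815 ± 152 to 2803 ± 399 CPM, ZYX, a focal adhesion protein, from 127 ± 40.0 to 428 ± 56.8 CPM, and FHL2, a target of SRF, from 2.78 ± 3.12 to 72.9 ± 27.9 CPM. The 2 that fell, CCN1 and AMOTL2, are targets of YAP, CCN1 from 1398 ± 581 CPM to 214 ± 89.7 CPM and AMOTL2 from 96.8 ± 15.8 CPM to 14.5 ± 6.51 CPM.

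Among called genes of the glycolysis list more rose than fell. Of 25 genes 16 were tested, 7 rose and 3 fell, against 15.6% and 19.6% of all genes, so the falls lie near the overall share. PKM, pyruvate kinase, ranged from 130.3 to 209 CPM in muscle (median 144) and from 633 to 875 CPM at passage 0 (median 758), PGAM1 rose from 166 ± 32.6 to 666 ± 89.9 CPM, ENO1 from 481 ± 115 to 1414 ± 136 CPM and PGK1 from 144 ± 47.1 to 397 ± 44.9 CPM. SLC2A3, a glucose carrier, fell from 1568 ± 659 to 15.0 ± 7.34 CPM, SLC16A1, a lactate carrier, from 82.4 ± 18.5 to 23.1 ± 6.28 CPM, and PDK4, which shuts off pyruvate oxidation, from 129 ± 103 to 3.65 ± 2.57 CPM. LDHA stood at 201 ± 46.5 in muscle and 267 ± 43.6 CPM and was not called. Of 25 measured genes of fatty acid handling 14 were tested, 8 fell and 3 rose. FABP3, ACSL4 and PLIN2, for binding, activation and storage of fatty acids, rose from 24.2 ± 29.4 to 168 ± 42.0 CPM, from 33.8 ± 14.7 to 153 ± 22.1 CPM and from 61.5 ± 23.8 to 260.4 ± 40.3 CPM, while PNPLA2, a lipase, fell from 74.9 ± 32.3 to 11.8 ± 3.97 CPM beside CD36 and FABP5. Of 27 measured cholesterol genes 21 were tested, 13 rose and 0 fell, with a median log2FC of 1.25. HMGCS1, the synthase that precedes the rate-limiting step, ranged from 40.2 to 90.2 CPM in muscle (median 65.0) and from 274 to 604 CPM at passage 0 (median 472). FDPS and FDFT1, later enzymes, rose from 53.9 ± 17.0 to 259 ± 67.2 CPM and from 24.3 ± 12.2 to 112 ± 21.8 CPM.

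Redox and metal genes rose for the most part. Of 29 measured genes of this list 21 were tested, 15 rose and 1 fell, with a median log2FC of 1.75. MT2A, a metallothionein, ranged from 9.29 to 306 CPM in muscle (median 79.8) and from 3752 to 8848 CPM at passage 0 (median 6028), and MT1A, another, rose from 10.96 ± 14.6 to 566 ± 185 CPM. SOD2, the mitochondrial superoxide dismutase, rose from 26.4 ± 11.1 to 509 ± 72.9 CPM and HMOX1, haem oxygenase, from 31.5 ± 9.01 to 221 ± 88.1 CPM. GPX1, glutathione peroxidase, was the gene that fell, from 480.3 ± 115 to 239.7 ± 28.1 CPM, with a log2FC at the threshold (-1.002 ± 0.12). It was not called with DESeq2 (-0.98), without TMM (-0.99) or with at least 30 cells (-0.997). Nor was it called without the filter on low counts (-0.79) or without animal 6 in muscle (-0.93). Of 23 measured ATF4 and stress genes 14 were tested, 6 rose and 5 fell. PSPH, of serine synthesis, rose from 7.68 ± 7.94 to 113 ± 29.4 CPM and ASNS, asparagine synthetase, from 14.8 ± 10.3 to 49.8 ± 14.4 CPM, whereas DDIT3, ATF3 and the amino acid carrier SLC38A2 fell from 159 ± 44.5 to 38.8 ± 6.91 CPM, from 412 ± 155 to 57.8 ± 19.0 CPM and from 959 ± 280.0 to 256 ± 43.3 CPM. ATF4 itself stood at 573 ± 92.9 in muscle and 512 ± 65.7 CPM.

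Immediate early and heat shock genes, which tissue digestion is known to induce, were high in the muscle cells. Of 41 measured 35 were tested, 27 fell and 1 rose, with a median log2FC of -2.80. NR4A1, an immediate early nuclear receptor, ranged from 399 to 1289.9 CPM in muscle (median 634) and from 1.03 to 11.9 CPM at passage 0 (median 3.15), and HSPA1A, an inducible chaperone, from 3182 to 18536 CPM in muscle (median 5150.4) and from 19.8 to 59.7 CPM at passage 0 (median 29.9), both without overlap. FOSL1, a late member of the FOS family, rose from 10.99 ± 17.96 to 29.2 ± 6.16 CPM. The constitutive chaperones were not called, HSPA8 at 2277 ± 637 CPM in muscle and 1986 ± 149.96 CPM at passage 0 and HSP90AA1 at 2153 ± 522 CPM and 2021 ± 151 CPM. In FAPs the median log2FC of the same list was -1.86, against 0.03 over all genes tested there. Of 22 measured hypoxia genes 13 were tested, 7 fell and 2 rose. EGLN1, the oxygen sensor, fell from 315 ± 124 to 94.5 ± 28.3 CPM, and NDRG1 was not called, at 251 ± 126 in muscle and 188 ± 35.5 CPM.

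Proliferation genes were read against the 15.6% of all tested genes that rose. Of 40 mitosis genes 15 were tested, 7 rose and 0 fell, and of 38 replication genes 21 were tested, 2 rose and 1 fell. These counts depend on the filter: without it 26 of 40 mitosis genes rose and 0 fell and 6 of 38 replication genes rose and 0 fell, and after thinning of the sums 1 of 5 and 1 of 6 tested genes rose. TPX2, a spindle protein, rose from 35.4 ± 19.7 to 100.1 ± 34.4 CPM and PTTG1, securin, from 11.5 ± 10.8 to 58.1 ± 17.7 CPM. MCM5, a helicase subunit, rose from 29.4 ± 23.6 to 69.9 ± 19.1 CPM, and PCNA, the sliding clamp, was not called, at 161 ± 92.3 in muscle and 132 ± 33.4 CPM. Of 19 measured D-type cyclin and inhibitor genes 16 were tested, 7 fell and 2 rose. CDKN1C, an inhibitor of cyclin-dependent kinases, ranged from 438 to 1506 CPM in muscle (median 862) and from 11.5 to 23.8 CPM at passage 0 (median 14.3), and CDKN1B, another, from 106 to 237 CPM in muscle (median 179) and from 3.97 to 24.9 CPM at passage 0 (median 18.9). CDKN2D and BTG1, an antiproliferative gene, fell from 69.3 ± 18.1 to 4.70 ± 3.14 CPM and from 586 ± 77.2 to 104 ± 35.1 CPM. CCND1 and CCND2, D-type cyclins, rose from 73.1 ± 49.9 to 273 ± 147 CPM and from 40.2 ± 30.5 to 270.3 ± 115 CPM, and CDKN1A, p21, stood at 432 ± 188 in muscle and 407 ± 68.6 CPM. Of 39 measured growth factor genes 13 were tested, 7 fell and 4 rose. The list had a median log2FC of -1.58 in VECs and -3.80 over its members tested in FAPs. Of the 13, 7 had a higher and 0 a lower change in VECs than in FAPs, against 11.8% and 13.8% of all genes. IGF2, a growth factor, ranged from 2141 to 3197 CPM in muscle (median 2409) and from 12.8 to 35.8 CPM at passage 0 (median 21.6), and the IGF binding proteins IGFBP6 and IGFBP7 fell from 1564 ± 895 to 46.7 ± 7.95 CPM and from 2378 ± 588 to 511 ± 123 CPM. PDGFA, HBEGF and FGFR1, 2 ligands and a receptor, rose from 6.01 ± 5.86 to 97.5 ± 62.7 CPM, from 24.7 ± 18.2 to 61.6 ± 15.4 CPM and from 43.9 ± 14.004 to 113 ± 18.1 CPM. IGFBP5 rose from 44.9 ± 50.4 to 154 ± 175 CPM and differed between animals at passage 0, from 10.5 CPM in animal 6 to 560.4 CPM in animal 2, with overlap, and without animal 6 in muscle it was not called (edgeR adjusted p = 0.053).

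The change in VECs was tested against the change in FAPs, the stromal progenitors of the same animals (10 muscle and 9 passage 0 pseudobulks). Of 8613 genes tested, 25.6% differed in their change, 11.8% higher and 13.8% lower in VECs. The balance turned in other settings, with 15.0% higher and 12.7% lower in the DESeq2 fit, and 12.6% higher and 9.88% lower with thinned sums. The types were assigned from these expression values, so a difference in a marker gene is not independent of the label. Of the 1006 genes that fell in VECs and were tested in FAPs, 608 fell and 33 rose in FAPs by the same rule, which called 43.4% of all genes tested in FAPs, and of the 877 that rose in VECs, 614 rose and 38 fell. Among called genes with a mean of at least 50 CPM in some group, PTGDR, CD36, FABP5, CXCL2, CA4 and AQP3 had the most negative differences. FABP5 went from 39.0 to 600.0 CPM in FAPs, a difference of -10.01 ± 0.43 in log2 (edgeR adjusted p = 1e-19), and CA4 from 5.79 to 133 CPM, a difference of -7.94 ± 0.59. CD36 went from 16.3 to 22.1 CPM in FAPs, a difference of -8.43 ± 0.58, and EPAS1 from 26.4 to 401 CPM, a difference of -7.02 ± 0.21. For CXCL2 the VEC side rests on the single cell of animal 6 described above. By the same rule, the most positive differences were those of MAP1LC3C, PGF, KLK10, PHLDA2, CXCL14 and TMOD1. PGF went from 133 to 11.4 CPM in FAPs, opposite to its rise in VECs, a difference of 7.92 ± 0.51. KLK10, a kallikrein, rose from 8.87 ± 6.75 to 206 ± 93.6 CPM in VECs beside from 8.90 to 1.38 CPM in FAPs. PHLDA2, CXCL14 and TMOD1 fell in FAPs from 73.4 to 2.18 CPM, from 181 to 15.7 CPM and from 87.0 to 1.10 CPM. They had VEC means of at most 27.1 CPM and did not pass the filter on low counts in the fit of VECs alone. CXCR4, ADAMTS4 and COL18A1 were further genes with a higher change in VECs, by 3.98 ± 0.46, 4.09 ± 0.43 and 4.50 ± 0.25. Against lymphatic endothelium the change of CXCR4 and ADAMTS4 differed by -0.46 ± 1.39 and -0.73 ± 1.51 and was not called as different.

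Of the tested basement membrane genes 12 of 15 had a higher change in VECs than in FAPs, COL4A1 by 2.49 ± 0.16 (FAPs from 2748 to 587 CPM), and 0 a lower one. All 15 tested mitosis genes and 19 of 21 replication genes had a lower change in VECs, and TPX2 went from 10.1 to 251 CPM in FAPs, a difference of -3.01 ± 0.37. Of the 21 tested cholesterol genes 11 had a lower and 0 a higher change in VECs, and in FAPs the list had a median log2FC of 2.35. The metal and redox list had 1 higher and 5 lower changes of 21, with a median log2FC of 1.75 in VECs and 2.36 in FAPs, and MT2A went from 470.2 to 14337 CPM in FAPs. Of the 35 tested immediate early and heat shock genes 20 had a lower and 2 a higher change in VECs. The shares among all genes tested, for comparison, were 11.8% higher and 13.8% lower.

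**Figure D4:**
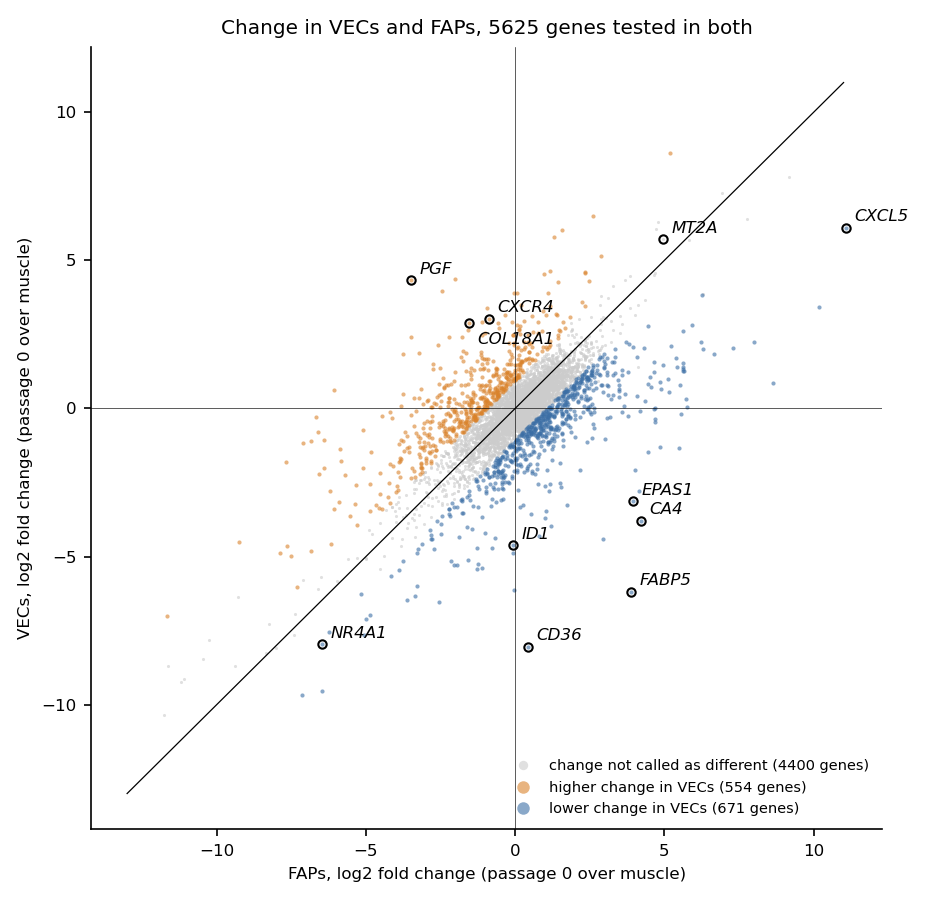
Log2 fold change of passage 0 over muscle in FAPs (x axis) and in VECs (y axis) for the genes tested in both, 1 point per gene, with colour for genes whose change differed between the types in the edgeR interaction test. FABP5, CA4 and EPAS1 lie at the lower right, PGF and CXCR4 at the upper left, and MT2A and NR4A1 near the diagonal.

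LECs were the other endothelial type, with 81 cells in muscle and 168 at passage 0. Sums of at least 10 cells existed for 4 muscle and 7 passage 0 animals, so this test is the less precise one. Of 5954 genes tested 6.94% differed in their change, 2.70% higher and 4.23% lower in VECs, and the median difference over all genes was -0.18. Higher changes made up 39.0% of the calls, and 51.5% in the DESeq2 fit. Among called genes with a mean of at least 50 CPM in some group, C1QTNF9, FABP5, SMAD7, SMIM3, CSF1 and GRO1 had the most negative differences, with FABP5 at -6.37 ± 0.54 (LECs from 895 to 877 CPM) and SMAD7 at -8.51 ± 2.66 (LECs from 0 to 1.81 CPM), the second of which was not called with the animal as a replicate block (edgeR adjusted p = 0.061). CSF1, the macrophage growth factor, rose in VECs from 34.2 ± 13.1 to 102.4 ± 30.5 CPM, and in LECs went from 0 to 125 CPM, a difference of -7.53 ± 2.30 that was not called without the filter on low counts (edgeR adjusted p = 0.068). With no count in the muscle LECs, the size of the fitted difference for CSF1 and SMAD7 depends on the prior count. GJA4, COL18A1, IGFBP5, PLAT, TMEM158 and SLC41A1 had the most positive differences by the same rule. COL18A1 differed by 5.43 ± 0.33 (LECs from 469 to 68.8 CPM) and PLAT by 4.94 ± 0.70 (LECs from 910.0 to 65.6 CPM). ENG fell more in VECs than in LECs, by -3.29 ± 0.45, as did ID1, by -4.23 ± 0.74, and KLF4, by -2.64 ± 0.40. The share of genes called here cannot be set against that for FAPs, since the numbers of cells and animals differ.

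Sums per animal do not show whether a level was spread over the cells. Each cell was therefore thinned to 2000 UMIs, which left out 336 of 1166 VECs in muscle and 3 of 831 at passage 0, and the share of VECs with at least 1 UMI was averaged over animals. PECAM1 was found in 76.2 ± 6.30% of muscle VECs and 78.7 ± 5.08% at passage 0, CDH5 in 65.0 ± 6.09% and 72.4 ± 6.35%, and CLDN5 in 69.2 ± 11.1% and 84.2 ± 5.23%. FAPs, which should lack these genes, had PECAM1 in 0.936% and 2.42% of cells and CLDN5 in 0.573% and 3.98%, at median depths of 6295 and 24523 UMIs before thinning against 3581.5 and 12927 in the VECs kept. VWF went from 41.7 ± 8.33% to 12.9 ± 6.82% of VECs. CD74 was found in 92.2 ± 2.97% of muscle VECs and 0.600 ± 0.757% at passage 0, where FAPs had 3.37% and 0.035%. CD36 went from 74.1 ± 12.6% to 1.92 ± 3.28%, beside 3.73% in FAPs at passage 0. RGCC, a capillary gene that restrains the cell cycle, went from 60.4 ± 8.67% to 24.7 ± 7.28%. ACKR1 was found in 4.80 ± 2.34% of muscle VECs and in 0 of 828 at passage 0, which allows up to 0.362% of cells with a UMI at this depth, and without thinning in 3 of 831. GJA4 stood at 11.8 ± 3.07% and 11.9 ± 5.99%. ESM1, a tip cell gene, was found in 0.672 ± 0.919% and 5.98 ± 3.31% of VECs, beside 11.2% in FAPs at passage 0. APLN, the apelin of tip cells, went from 0.335 ± 0.628% to 0.886 ± 0.766%, and SELE, the inflammatory selectin, from 0 of 830 (up to 0.361% of cells with a UMI at this depth) to 0.102 ± 0.307%. The proliferation genes MKI67 and TOP2A were found in 1.11 ± 1.53% and 1.51 ± 1.89% of muscle VECs and in 6.08 ± 3.17% and 9.01 ± 1.97% at passage 0, beside 25.5% and 30.4% in FAPs of the passage 0 library. FAPs carry CD36, ESM1, MKI67 and TOP2A themselves at passage 0, so their shares are no background level for these genes, and the part of RNA from other cells in the VEC shares was not tested. Limits for a count of 0 apply to cells with a UMI, not to cells that express the gene, and cover counting error alone.

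**Figure D5:**
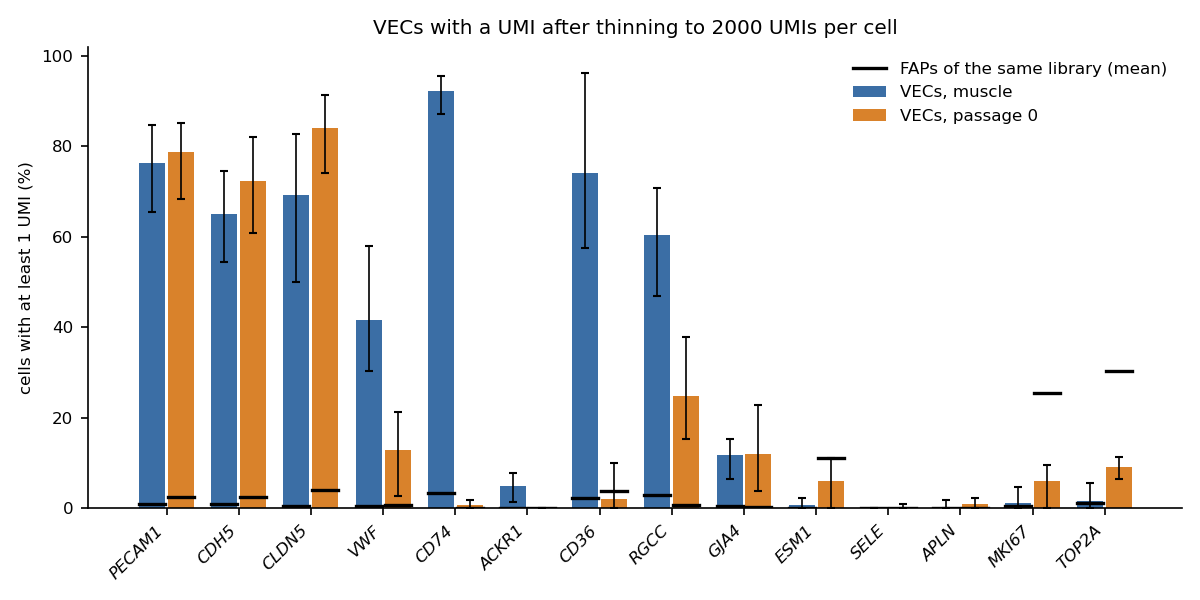
Share of VECs with at least 1 UMI of 14 genes after thinning every cell to 2000 UMIs (percent, mean over animals as bars, with error bars from the lowest to the highest animal), in muscle and at passage 0, with a black line at the mean in FAPs of the same library. CD74 and CD36 drop from 92.2 ± 2.97% and 74.1 ± 12.6% to 0.600 ± 0.757% and 1.92 ± 3.28%, whereas PECAM1 stands at 76.2 ± 6.30% and 78.7 ± 5.08%.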

How the data were processed

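The data were 3′ single-cell libraries of cells from cattle muscle. According to the study's methods and the submitters' processing notes, the authors aligned reads to build ARS-UCD1.2 with Cell Ranger 6.0.1, assigned cells to animals with demuxlet and kept cells within set limits on genes, UMIs and mitochondrial share. The matrices, as the authors deposited them, give whole-number UMI counts that were not normalized. The deposited cell table gives the animal, the cell type and the percent of mitochondrial UMIs, and each of its cells is a demuxlet singlet. No other doublet caller was run, so doublets within an animal may remain. The labels list 2 runs for passage 0, and 1 matrix was used. The combined expression table and 9 columns of the combined cell table were not used.

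Counts of 21880 genes were summed per animal and cell type (at least 10 cells) and fitted in edgeR 4.0.16 (R 4.3.3) with filterByExpr, TMM factors and a robust quasi-likelihood F test. Standard errors of log2FC were derived from its size over the root of the F statistic. The difference between cell types was the interaction term of 1 fit over both. The fits were also run on simulated counts with fewer changed genes than called here and no animal effect, so that run does not test these data. Alternatives were DESeq2 1.42.0, no TMM, no filter, at least 30 cells, sums thinned to 1 total, 23 cells per animal, animal 3 left out, the animal as a block, and other thinning of cells. Leaving out animal 6 of the muscle group was added after seeing the data. The same 9 animals occur in both groups, so samples pair by animal. Deviations of the same animal from the group means correlated across genes with r from -0.0261 to 0.173 (median 0.0731), and 7 of 9 animals matched themselves best.

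The members, the 44 gene lists and the tests were chosen with earlier results of these data known. The rule for named genes took the 12 largest rises and 12 largest falls among called genes with at least 50 CPM in the higher group and 1 direction in 9 of 9 shared animals, from each list up to 4 rises, 4 falls and 4 abundant genes not called, the 6 largest called differences in each direction against FAPs and LECs with at least 50 CPM in some group, and the 18 vascular markers, of which those that show each group are printed. Some genes that the rule names are not reported here. Symbols are those of the matrices, and the 68 that stand for several genes were left out. No sequence is printed, since no genome of this build was used here.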

Additional observations from a re-analysis of the deposited data

Results flagged for a closer look

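Of 440 sets of animals examined (220 named genes in 2 groups), 62 held 1 animal whose gap to the next exceeded the limit of Dixon's test at the 95% level. The limit assumes normally distributed values and was applied to CPM of sparse counts, so the number expected by chance is not known. A set with 0 in each animal could not be flagged. Some flags rest on 1 to 3 UMIs, as those of PTX3 and CCL5 in muscle and of AQP3, SMAD7 and SELP at passage 0. The muscle VECs of animal 6 had the separate high values of HMGA1 at 31.1 CPM, TNFRSF6B at 338 CPM, ADM at 413 CPM, ANGPT2 at 239.8 CPM, CXCL8 at 79.9 CPM, CXCL2 at 631 CPM, CAVIN1 at 2225 CPM, PLAUR at 62.2 CPM, ENO1 at 751 CPM, VLDLR at 40.0 CPM, NDRG1 at 586 CPM, CCND1 at 199.8 CPM and ERG at 231 CPM. Animal 5 stood above the others in muscle for PTX3 at 5.92 CPM, MEOX1 at 311 CPM, ADAMTS4 at 118 CPM, CXCL3 at 8485 CPM, TNFAIP3 at 88.8 CPM and SNAI1 at 130.2 CPM. The muscle VECs of animal 2 had the separate high values of CXCL5 at 78.6 CPM, ACTA1 at 391 CPM, TNNI2 at 229 CPM, MYL1 at 155 CPM, TAGLN at 22.5 CPM and TPM2 at 234 CPM. In muscle, animal 2 stood below the others for ETS1 at 427 CPM. Animal 1 stood above the others in muscle for PSPH at 26.3 CPM. Animal 3 stood above the others in muscle for CCL5 at 4.40 CPM and TEK at 356 CPM. The muscle VECs of animal 4 had the separate high values of HSPA1A at 18536 CPM. Animal 7 stood above the others in muscle for UCHL1 at 11.7 CPM and ITGA2 at 30.4 CPM. The muscle VECs of animal 8 had the separate high values of ASPN at 192 CPM and MT1A at 49.5 CPM. Animal 9 stood above the others in muscle for HBEGF at 69.7 CPM. The muscle VECs of animal 10 had the separate high values of PCNA at 376 CPM. Animal 5 stood above the others at passage 0 for SELP at 11.9 CPM, SMAD7 at 7.94 CPM, NR4A1 at 11.9 CPM, CDKN1C at 23.8 CPM and PDGFA at 246 CPM. At passage 0, animal 5 stood below the others for CTNNA1 at 183 CPM and SLC38A2 at 155 CPM. Animal 9 stood above the others at passage 0 for FLT1 at 103 CPM, CD36 at 23.4 CPM, F11R at 152 CPM, VLDLR at 294 CPM, BTG1 at 185 CPM and CDKN1A at 578 CPM. The passage 0 VECs of animal 6 had the separate high values of JSP.1 at 1759.7 CPM, AMOTL2 at 28.3 CPM and FGFR1 at 155 CPM. The passage 0 VECs of animal 2 had the separate high values of AQP1 at 40.7 CPM, MMP14 at 84.8 CPM, HSPA1A at 59.7 CPM and IGFBP5 at 560.4 CPM. Animal 7 stood above the others at passage 0 for FOSB at 3.77 CPM, ACTA2 at 58.4 CPM and AQP3 at 0.942 CPM. Animal 1 stood above the others at passage 0 for IL33 at 5.15 CPM and S100A4 at 3047 CPM. The passage 0 VECs of animal 4 had the separate high values of BTNL9 at 1.95 CPM.

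Some of the high values in muscle rested on 1 cell. In animal 6, 1 VEC held 141 of the 142 UMIs of CXCL2 and 17 of the 18 UMIs of CXCL8, and in animal 2, 1 VEC held 34 of the 35 UMIs of CXCL5. The UMIs of TNFRSF6B in animal 6 were spread over 10 VECs, with at most 23 of 76 in 1 cell. The fibre genes ACTA1, TNNI2 and MYL1 were spread over 56, 30 and 27 VECs of animal 2.

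Differences between cell types also drew attention. The change of 2208 genes differed between VECs and FAPs by the interaction test. Among the named genes the difference was positive, in log2, for MAP1LC3C by 12.06, PGF by 7.92, CXCR4 by 3.98, ADAMTS4 by 4.09, COL18A1 by 4.50, COL4A1 by 2.49, KLK10 by 7.67, PHLDA2 by 7.40, CXCL14 by 6.89 and TMOD1 by 6.76, and negative for PTGDR by -10.89, CD36 by -8.43, FABP5 by -10.01, CXCL2 by -7.70, EPAS1 by -7.02, TPX2 by -3.01, CA4 by -7.94 and AQP3 by -7.74. The change of 413 genes differed between VECs and LECs by the interaction test. Among the named genes the difference was positive, in log2, for GJA4 by 5.68, COL18A1 by 5.43, IGFBP5 by 7.05, PLAT by 4.94, TMEM158 by 4.24 and SLC41A1 by 4.23, and negative for C1QTNF9 by -6.53, ENG by -3.29, FABP5 by -6.37, SMAD7 by -8.51, ID1 by -4.23, KLF4 by -2.64, SMIM3 by -9.01, CSF1 by -7.53 and GRO1 by -6.04. Where 1 side had few or no counts, as for MAP1LC3C, PTGDR, AQP3, CSF1 and SMAD7, the size of the fitted difference depends on the prior count.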

How the results depend on the processing

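Of 252 gene results named above, 226 kept their direction and their side of the threshold in each alternative that gave a value. The number of genes called in VECs (2071) was within 1.5 times with DESeq2, without TMM, with at least 30 cells, without animal 3 and without animal 6 in muscle (2134). It was 5030 of 15179 tested without the filter on low counts, 1203 of 3303 with each sum thinned to 206284 UMIs and 678 of 1739 with 23 cells per animal, so fewer or more genes were tested in these settings. Against FAPs 2208 genes were called, and 987 of 4394 after thinning. With the animal as a replicate block, 2092 genes were called in VECs, 2234 against FAPs and 392 against LECs. Among the gene values printed above that the block also gave, it ended the call of SMAD7 against LECs, made NOS3 a call and left the other calls as they were.

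Genes that changed direction were not called in the main test. Log2 differences were -0.10 for COL3A1 and -0.00585 for MEOX1 after thinning, -0.063 for COL3A1 and -0.00592 for VEGFC without animal 3, and -0.59 for COL3A1, -0.38 for MEOX1, -0.28 for VEGFC and -0.040 for LAMC1 with equal cell numbers. Without the filter they were 0.090 for DLL4, 0.088 for GJA4, 0.078 for TNFAIP3, 0.095 for PSMB8, 0.025 for ITGB1, 0.052 for ATF4, 0.014 for HSPA8, 0.12 for HSP90AA1 and 0.15 for CDKN1A. TPM2 was at 0.0086 with DESeq2, 0.18 without the filter and 0.073 after thinning. CDKN1A was at 0.020 with the replicate block and 0.067 without animal 6 in muscle. Calls were lost in some settings for GPX1, ACTA2, PVR, TIE1 and IGFBP5, and for CSF1 against LECs, and gained for CLDN5, PSMB9, NOS3, ERG and CXCL2. For these changes the cause was not tested.

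Shares of VECs with a UMI depend on depth. Without thinning, the difference of passage 0 minus muscle in percentage points was 17.3 for PECAM1, 19.4 for CDH5, -8.18 for VWF, -6.12 for RGCC, 16.7 for GJA4, 22.02 for ESM1, 7.14 for APLN, 24.4 for MKI67 and 30.1 for TOP2A, and 20.2 for CLDN5, -89.9 for CD74, -74.0 for CD36, -4.50 for ACKR1 and 0.153 for SELE. With 1000 UMIs per cell it was -78.4 for CD74 and 4.70 for TOP2A. Depth per cell differed between the libraries, and 1 library per timepoint limits each comparison.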
